A study of Mus musculus with 12 samples.

Results

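The genes described here are 56 components of mouse Wnt signalling, given as a list of names: 19 Wnt ligands, 14 receptors and co-receptors, 10 secreted inhibitors, 6 R-spondins or their receptors, and 7 feedback or target genes. All 56 were found once among the 55487 genes counted, after Ensembl identifiers had been paired with mouse symbols, and all 56 had enough counts to be tested. No measured value was used to choose them, but the list was drawn up with earlier results of these libraries known.

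RNA of mouse epiblast stem cells (EpiSCs), a model of the primed epiblast of the post-implantation embryo, was sequenced in bulk after the cells had been grown as floating embryoid bodies in medium with fetal calf serum. Per the series' description, the EpiSCs were converted from embryonic stem cells that carry a doxycycline-inducible, FLAG-tagged Mixl1, a homeobox transcription factor of the primitive streak. D1Dox_d2 embryoid bodies received 1 µg/mL doxycycline and were harvested on day 2, NoDox_d2 had none and were collected on day 2, D3Dox_d4 had the same doxycycline dose and were collected on day 4, and NoDox_d4 had none and were collected on day 4. Each group held 3 libraries. All 4 groups share the transgene. What D1 and D3 stand for is not defined in the labels. The D number changes together with the day, so their parts in differences between the doxycycline effects cannot be told apart. Transgene-free cells with doxycycline were not analysed here, so that effects of the antibiotic itself cannot be told apart from those of Mixl1. The labels do not say whether replicates were separate cultures, so that p-values measure the spread between these libraries only.

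The 12 libraries held 24100487 to 28020036 counts. Mixl1, whose transgene and endogenous transcripts are counted together, had 361.9 to 392.2 CPM (counts scaled to library size) in D1Dox_d2 against 0.593 to 91.0 CPM in NoDox_d2, and 418 to 478 CPM in D3Dox_d4 against 1.11 to 1.83 CPM in NoDox_d4. The value of 91.0 CPM belongs to NoDox_d2 replicate 1, in which T (brachyury), a primitive streak gene, reached 1261 CPM against 100.1 and 142.2 CPM in replicates 2 and 3. All 8 listed markers of the primed epiblast were detected in every library. Their summed levels were 525 to 556 CPM in D1Dox_d2 against 940 to 1123 CPM in NoDox_d2. At day 4 the sums were 269 to 293 CPM in D3Dox_d4 against 341 to 553 CPM in NoDox_d4. At an edgeR adjusted p under 0.05, 4 of the 8 were lower and 0 higher at day 2. At day 4, 4 were lower and 1 higher. Of all genes, 13.4% were lower and 14.9% higher at day 2, and 10.2% and 13.4% at day 4. The sums do not stand for each marker. Fgf5 had 32.54 to 34.39 CPM in D1Dox_d2 against 31.74, 12.29 and 18 CPM in NoDox_d2. Pou3f1 had 47.96 to 55.72 CPM in D3Dox_d4 against 12.15 to 21.34 CPM in NoDox_d4.

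The 2 NoDox libraries numbered 1 stood apart from the other NoDox libraries in the Wnt genes. In NoDox_d2, replicate 1 was at least 2-fold higher than the mean of replicates 2 and 3 for 19 of the 56 genes and at least 2-fold lower for 10, against 9.22% and 8.32% of all 18109 genes tested. In NoDox_d4 the numbers were 12 higher and 9 lower, against 6.5% and 10.4% of all genes. No member of the list differed by 2-fold in this way in D1Dox_d2 or D3Dox_d4. Few of all genes did so there: 0.635% were higher and 2.16% lower in D1Dox_d2, and 0.745% and 3.05% in D3Dox_d4. The gap in NoDox_d2 was 13.3-fold for Sp5, 10.6-fold for Wnt5b and 5.9-fold for Wnt3a on the high side. On the low side replicate 1 held 0.0316 of the mean of the others for Wnt1 and 0.232 of it for Sfrp2. Values without them are given beside called results that they end or move by over 1.5 times in fold.

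Wnt proteins are secreted, lipid-modified ligands. They bind Frizzled receptors together with the LRP5 or LRP6 co-receptor, which stabilises β-catenin and lets it act with TCF and LEF factors on target genes, while other Wnt signals act through ROR receptors or planar polarity proteins without β-catenin. The system is held in check outside the cell by some Dickkopf proteins, such as DKK1, which occupy the co-receptor, by secreted Frizzled-related proteins and WIF1, which bind Wnt, and by the enzyme NOTUM, which removes the lipid. In the mouse embryo Wnt signalling is needed to form the primitive streak and mesoderm, and its inhibition at the front of the embryo is needed to form the head.

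Promoter sequences are shown for 3 secreted inhibitors whose transcripts changed with doxycycline, Dkk1, Sfrp2 and Wif1, and for Sp5, a target gene whose libraries spread most. Sp5 was not called and was added after its values were seen. The rule took called inhibitors and targets with the 3 lowest adjusted p of their role in a comparison. Promoters of Sfrp5 and Tcf7 also met it but are not shown. Each sequence shown is that of RefSeq in build GRCm38.p6, from 250 bases before to 50 bases after the transcription start. It is written 5′ to 3′ on the strand of the gene. Capitals mark the TCF/LEF core motifs searched on both strands, CTTTGAT and CTTTGAA, whose reverse complements are ATCAAAG and TTCAAAG. Dkk1 lies at chr19:30549447-30549746 on the minus strand, Sfrp2 at chr3:83766071-83766370 on the plus strand, Wif1 at chr10:121033754-121034053 on the plus strand, and Sp5 at chr2:70474673-70474972 on the plus strand. The genes themselves span chr19:30545863-30549665 for Dkk1, chr3:83766321-83774316 for Sfrp2, chr10:121033960-121100650 for Wif1 and chr2:70474923-70477729 for Sp5 in GENCODE vM25 on the same build.
Dkk1: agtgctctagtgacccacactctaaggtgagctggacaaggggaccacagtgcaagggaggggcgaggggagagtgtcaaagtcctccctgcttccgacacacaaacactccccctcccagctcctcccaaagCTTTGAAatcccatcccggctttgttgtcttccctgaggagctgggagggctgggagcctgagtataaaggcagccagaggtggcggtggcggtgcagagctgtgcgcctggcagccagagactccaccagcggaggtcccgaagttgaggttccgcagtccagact
Sfrp2: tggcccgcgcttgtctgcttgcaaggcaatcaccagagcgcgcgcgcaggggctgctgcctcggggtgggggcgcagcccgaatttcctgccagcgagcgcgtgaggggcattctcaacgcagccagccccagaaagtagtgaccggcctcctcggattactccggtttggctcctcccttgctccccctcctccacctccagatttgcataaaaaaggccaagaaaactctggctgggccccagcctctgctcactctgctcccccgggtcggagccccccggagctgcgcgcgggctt
Wif1: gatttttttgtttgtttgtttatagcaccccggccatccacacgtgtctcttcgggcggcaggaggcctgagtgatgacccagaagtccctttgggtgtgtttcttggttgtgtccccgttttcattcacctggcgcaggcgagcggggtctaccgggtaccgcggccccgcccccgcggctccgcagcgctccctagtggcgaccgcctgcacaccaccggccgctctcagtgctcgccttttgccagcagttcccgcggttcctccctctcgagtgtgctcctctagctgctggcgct
Sp5: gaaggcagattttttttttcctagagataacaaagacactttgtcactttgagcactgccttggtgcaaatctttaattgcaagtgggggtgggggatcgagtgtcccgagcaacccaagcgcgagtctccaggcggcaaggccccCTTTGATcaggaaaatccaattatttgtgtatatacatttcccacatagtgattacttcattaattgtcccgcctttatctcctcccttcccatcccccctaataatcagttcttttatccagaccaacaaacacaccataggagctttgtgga

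Dkk1 held CTTTGAA starting 117 bases before the transcription start, and Sp5 held CTTTGAT starting 104 bases before it. The windows of Sfrp2 and Wif1 held neither motif, nor did those of Sfrp5 and Tcf7, which are not shown. The promoter table matched 38 of the 56 genes with 46 promoters, of which 4 held a core (8.7%), the others being those of Wnt5b and Wnt11. Of all 32817 RefSeq promoters of this length, 8.65% held one, so the share among the Wnt genes was close to that of all promoters.

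With doxycycline, Wnt genes were called in both directions at each day. At day 2, 15 of the 56 genes were higher in D1Dox_d2 than in NoDox_d2 and 12 were lower at an edgeR adjusted p under 0.05. That is 48.2% of the list, beside 28.4% of all genes tested (14.9% higher and 13.4% lower). At day 4, 9 were higher in D3Dox_d4 than in NoDox_d4 and 10 were lower, 33.9% of the list beside 23.5% of all genes (13.4% higher and 10.2% lower). The median log2 fold change of the 56 genes was -0.0638 at day 2 and -0.149 at day 4, against -0.03 and -0.0309 over all genes. The libraries of the compared groups did not overlap for 32 of the 56 genes at day 2 (46% of all genes) and for 27 at day 4 (40.6% of all genes).

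Of the 56 genes, 5 were higher with doxycycline at both days (Dkk1, Dkk3, Fzd5, Lgr5 and Wnt2) and 6 were lower at both (Fzd9, Rspo3, Sfrp2, Tcf7, Wnt8a and Wnt8b). Another 3, Fzd1, Fzd8 and Wnt4, were higher at day 2 and lower at day 4. At neither day were 24 called. The shares of all genes with these combinations of calls were not computed, so the counts do not set the list apart from other genes. Without both NoDox libraries numbered 1, 27 genes were higher and 18 lower at day 2, with 26 of the 27 calls kept and 53.2% of all genes called. At day 4, 16 were then higher and 16 lower, all 19 calls were kept and 38.5% of all genes were called.

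**Figure D1:**
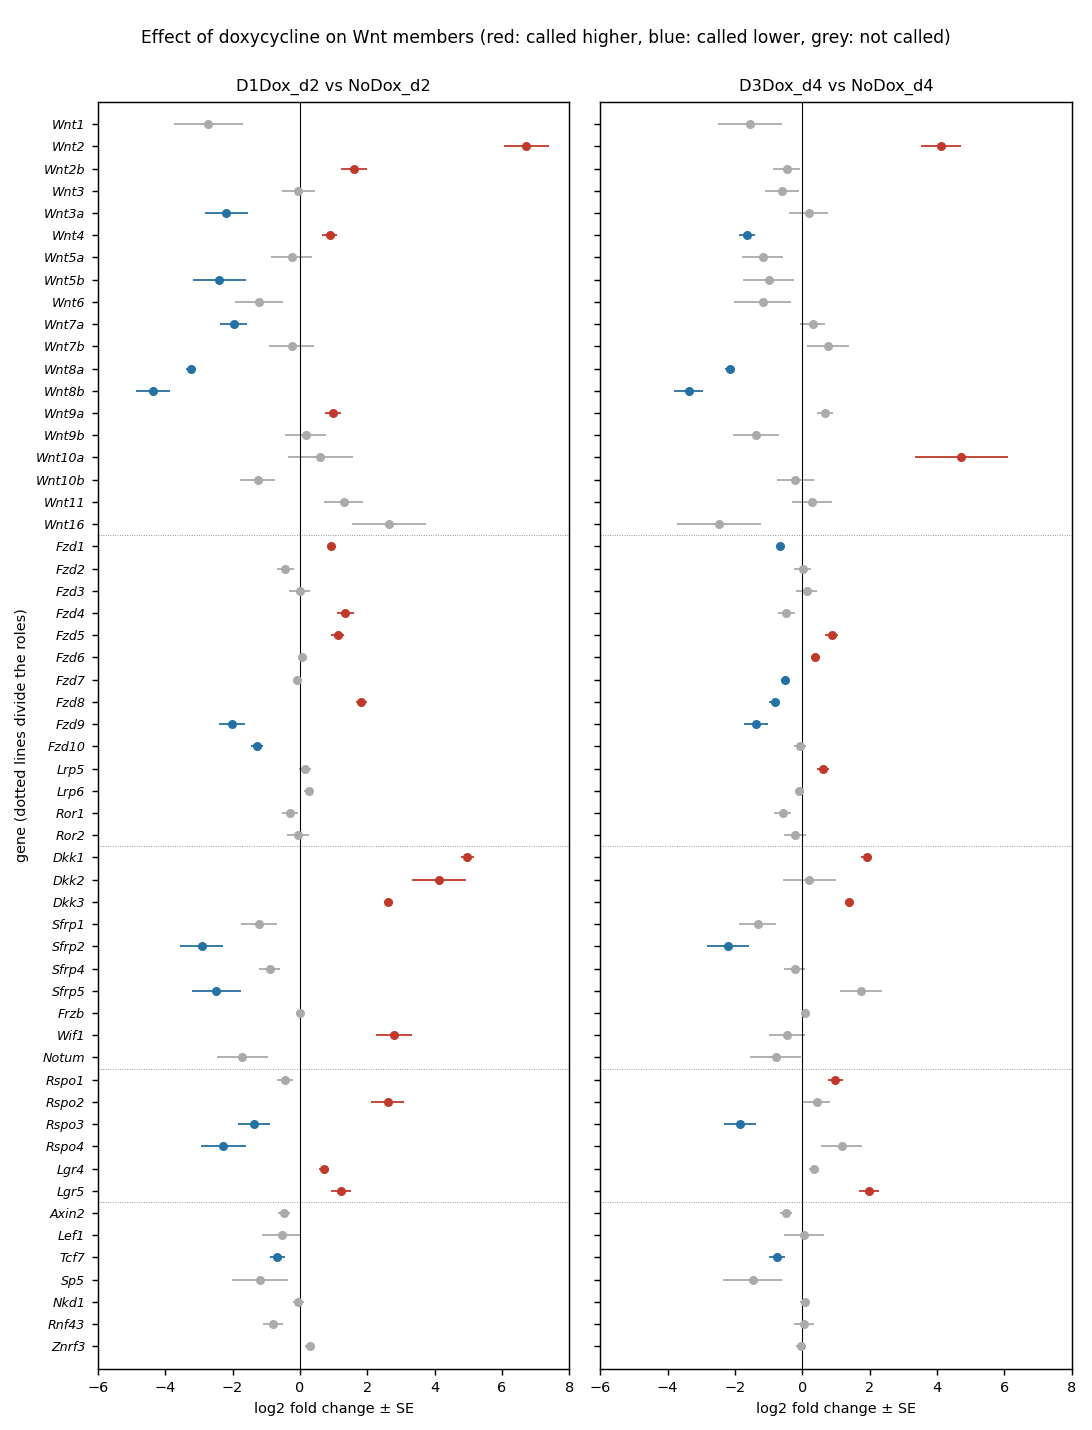
Log2 fold change ± standard error (SE) of each of the 56 genes, by role, for D1Dox_d2 against NoDox_d2 (left) and D3Dox_d4 against NoDox_d4 (right), from edgeR with 3 libraries per group. Red and blue points were called higher and lower at an adjusted p under 0.05: 15 and 12 genes at day 2, 9 and 10 at day 4.

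The secreted inhibitors were called in both directions at each day. At day 2, 4 of 10 were higher (Dkk1, Dkk2, Dkk3 and Wif1) and 2 lower (Sfrp2 and Sfrp5). At day 4, Dkk1 and Dkk3 were higher and Sfrp2 lower, and Dkk2, Wif1 and Sfrp5 were not called. The calls are 60% of the 10 at day 2 and 30% at day 4, beside 28.4% and 23.5% of all genes. These are bulk measurements, in which fewer cells of a type and less RNA per cell cannot be told apart.

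Dkk1, which blocks the LRP6 co-receptor, had 148.5, 156.9 and 134.3 CPM in the D1Dox_d2 libraries against 5.61, 3.32 and 5.02 CPM in NoDox_d2. Dkk1 at day 4 had 31.2, 34.7 and 29.5 CPM in D3Dox_d4 against 9.70, 8.13 and 7.53 CPM in NoDox_d4. The groups did not overlap at either day, and the NoDox libraries numbered 1 were close to the others. For Dkk1 the log2 fold change was 4.97 ± 0.19 at day 2 (SE; 31.4-fold; edgeR adjusted p = 3.87e-08) and 1.91 ± 0.17 at day 4 (3.76-fold; edgeR adjusted p = 1.86e-05). The effect at day 4 was smaller than that at day 2 by a log2 difference of -3.06 ± 0.24 (edgeR adjusted p = 6.62e-05).

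Dkk3, the most divergent Dickkopf, had 35.2, 38.3 and 39.5 CPM in D1Dox_d2 against 6.99, 6.01 and 5.32 CPM in NoDox_d2, and 17.03, 17.3 and 19.6 CPM in D3Dox_d4 against 6.63, 6.91 and 7.11 CPM in NoDox_d4. No library overlapped between the groups. Its log2 fold change was 2.62 ± 0.14 at day 2 and 1.39 ± 0.13 at day 4, with edgeR adjusted p = 2.85e-07 and 2.85e-05, and the effect differed between the days by -1.24 ± 0.18 (adjusted p = 0.00241).

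Dkk2, which like Dkk1 binds LRP co-receptors, had 32.0, 31.2 and 37.2 CPM in D1Dox_d2 against 4.56, 0.632 and 0.521 CPM in NoDox_d2. Dkk2 at day 4 had 1.95, 1.88 and 1.83 CPM in D3Dox_d4 against 3.67, 0.610 and 0.653 CPM in NoDox_d4. All D1Dox_d2 libraries lay above all NoDox_d2 libraries, whereas at day 4 NoDox_d4 replicate 1 lay above and the other NoDox_d4 libraries below those of D3Dox_d4. The log2 fold change at day 2 was 4.12 ± 0.81 (edgeR adjusted p = 0.00334), and 5.84 without the NoDox libraries numbered 1. At day 4 it was 0.20 (not called), but 1.57 and called without those libraries. The difference between the days was -3.92 ± 1.10 (adjusted p = 0.0384), and -5.64 without NoDox_d2 replicate 1. It missed the threshold when any library of D1Dox_d2 or D3Dox_d4, NoDox_d2 replicate 2 or 3, or NoDox_d4 replicate 1 was left out (-2.54 to -3.97, adjusted p 0.0713 to 0.123).

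Wif1, a secreted protein that binds Wnt directly, had 17.1, 16.8 and 19.6 CPM in D1Dox_d2 against 5.40, 1.07 and 1.26 CPM in NoDox_d2. Wif1 at day 4 had 2.06, 2.14 and 2.23 CPM in D3Dox_d4 against 4.46, 2.68 and 1.73 CPM in NoDox_d4. The day 2 groups were separate and the day 4 groups overlapped. For Wif1 the log2 fold change was 2.78 ± 0.54 at day 2 (edgeR adjusted p = 0.00307; 3.92 without the NoDox libraries numbered 1) and the effects differed between the days by -3.24 ± 0.75 (adjusted p = 0.0173). Without NoDox_d2 replicate 1 that difference was -4.38, and without both NoDox libraries numbered 1 it was -3.96.

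Sfrp2, a secreted Frizzled-related Wnt binder, had 26.7, 25.1 and 28.5 CPM in D1Dox_d2 against 62.9, 277.6 and 265.3 CPM in NoDox_d2. Sfrp2 at day 4 had 113.9, 96.4 and 102.5 CPM in D3Dox_d4 against 109.1, 678.1 and 656.3 CPM in NoDox_d4. The day 2 groups were separate, but NoDox_d4 replicate 1 lay within the D3Dox_d4 range. For Sfrp2 the log2 fold change was -2.92 ± 0.63 at day 2 and -2.21 ± 0.61 at day 4 (edgeR adjusted p = 0.006 and 0.0222), and -3.35 and -2.68 without the NoDox libraries numbered 1. The day 4 call was lost without any one D3Dox_d4 library or without NoDox_d4 replicate 2 or 3 (-1.88 to -2.27, adjusted p 0.0633 to 0.0778). Of the exon bases of Sfrp2, 16.12% are shared with Gm26771 on the opposite strand, and counting did not use strand.

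Sfrp5 had 0.530, 0.285 and 0.520 CPM in D1Dox_d2 against 0.283, 2.96 and 4.31 CPM in NoDox_d2. NoDox_d2 replicate 1 lay below all D1Dox_d2 libraries and the other NoDox_d2 libraries above them, so the groups overlapped. The day 2 call was lower, at -2.48 ± 0.72 (edgeR adjusted p = 0.0251), and -3.03 without the NoDox libraries numbered 1. At day 4 its libraries had 9.25, 9.70 and 6.81 CPM in D3Dox_d4 against 1.54, 3.29 and 2.84 CPM in NoDox_d4, a log2 fold change of 1.75 that was not called (adjusted p = 0.0664). The effects differed by 4.23 ± 0.96 (adjusted p = 0.0166). The day 2 call was lost when any D1Dox_d2 library or NoDox_d2 replicate 2 or 3 was left out (-1.85 to -2.65, adjusted p 0.0603 to 0.108), and the difference was 4.005 without D1Dox_d2 replicate 2 (adjusted p = 0.0507) and 3.60 without NoDox_d2 replicate 3, where the call remained.

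Sfrp1, another Frizzled-related protein, was not called at either day. It had 85.9, 79.9 and 67.7 CPM in D1Dox_d2 against 43.2, 275.5 and 224.1 CPM in NoDox_d2, and 67.8, 87.8 and 80.6 CPM in D3Dox_d4 against 89.6, 229.9 and 274.4 CPM in NoDox_d4. Without the NoDox libraries numbered 1 it was lower at both days, by -1.69 and -1.68 on the log2 scale (edgeR adjusted p = 7.72e-08 and 1.38e-07). It was also called lower at day 2 without NoDox_d2 replicate 1 alone (adjusted p = 0.00234) and at day 4 without NoDox_d4 replicate 1 alone (adjusted p = 0.0346). Frzb had group means of 57.3 to 60.7 CPM in the 4 groups, with a day 2 log2 fold change of 0.00 ± 0.13. Sfrp4 and Notum were not called at either day, and Notum, of whose exon bases 38.12% lie opposite other genes, reached 61.7 CPM in NoDox_d2 replicate 1 against 6.96 and 9.93 CPM in replicates 2 and 3.

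**Figure D2:**
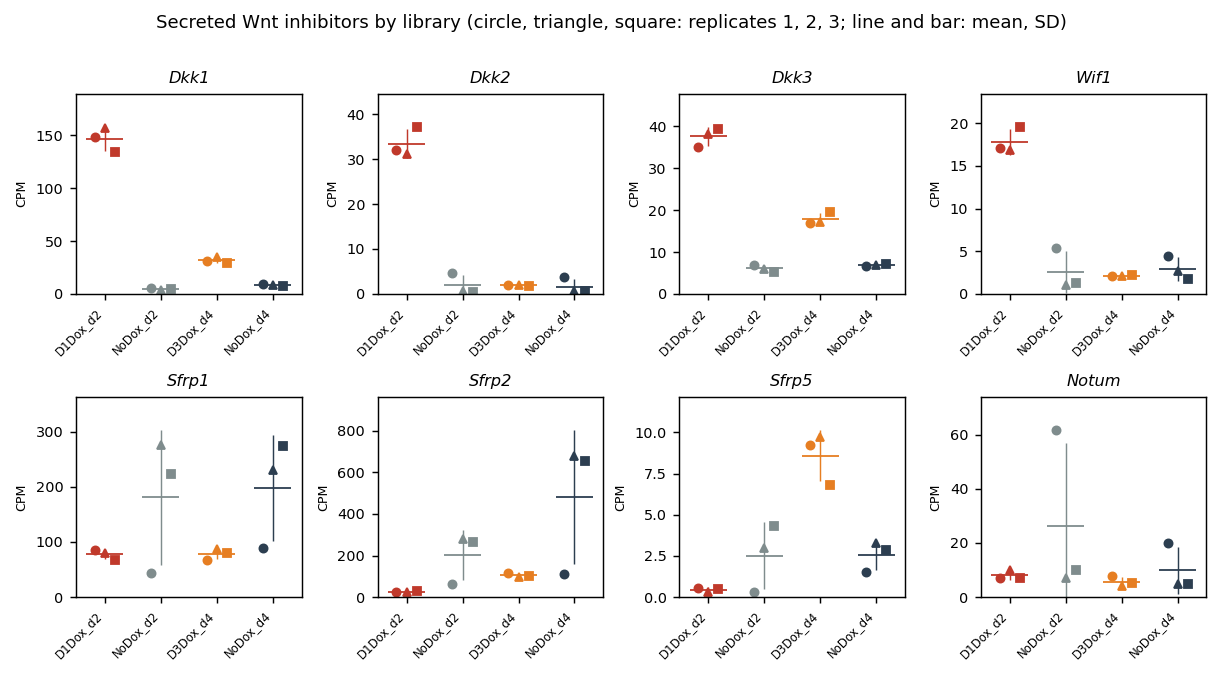
CPM of 8 secreted inhibitors in each library, by group (D1Dox_d2, NoDox_d2, D3Dox_d4, NoDox_d4). Circles, triangles and squares are replicates 1, 2 and 3, and lines with bars are the mean ± SD (bars end at 0). Dkk1 stands at 134.3 to 156.9 CPM in D1Dox_d2, above every other library, and the NoDox circles of Sfrp1 and Sfrp2 lie well below the NoDox triangles and squares.

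Levels per kilobase of exon (RPKM) put these changes on a scale that can be compared between genes. Dkk1 had the highest mean level of the 10 inhibitors in D1Dox_d2, 60.4 ± 4.71 RPKM (SD, n = 3), followed by Frzb at 18.2 RPKM and Sfrp1 at 17.8 RPKM, which differ by less than their spread. Sfrp2 had the highest level in D3Dox_d4 at 48.4 ± 4.12 RPKM, in NoDox_d2 at 93.8 ± 56 RPKM and in NoDox_d4 at 223.5 ± 149.8 RPKM. In NoDox_d2 the spread of Sfrp2 reached that of Sfrp1 (41.4 ± 27.9 RPKM), but replicate 1 was low for both. Within each NoDox_d2 library Sfrp2 was the higher, at 29.2, 128.9 and 123.2 RPKM against 9.88, 63.0 and 51.3 RPKM.

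Markers of other cells also differed between the groups. Of 13 genes listed for fibroblasts or feeder cells, 9 were higher and none lower in D1Dox_d2 than in NoDox_d2, with summed levels of 1796 to 2181 CPM in D1Dox_d2 against 322 to 461 CPM in NoDox_d2. At day 4 the sums were 443 to 526 CPM in D3Dox_d4 against 158 to 651 CPM in NoDox_d4, with 1 gene higher and 3 lower. Of all genes, 14.9% were higher and 13.4% lower at day 2, and 13.4% and 10.2% at day 4. S100a4, one of these markers, had 0.910 to 1.93 CPM in D1Dox_d2 and at most 0.812 CPM in NoDox_d2. The 4 neural ectoderm markers summed to 53.9 to 68.6 CPM in D1Dox_d2 against 57.0 to 404.4 CPM in NoDox_d2, with 3 lower and 1 higher. Of these, Sox1 had 40.9 CPM in NoDox_d2 replicate 1 against 292.5 and 276 CPM in replicates 2 and 3, and Pax6 had 2.47 CPM against 30.6 and 25.2 CPM, low in the library in which Sfrp1, Sfrp2 and Wnt1 were also low. The neural sums at day 4 were 214 to 265 CPM in D3Dox_d4 against 156 to 732 CPM in NoDox_d4, with 1 higher and none lower. Neurog2, another of the 4, went the other way from Sox1 and Pax6 at day 2. It had 11.1, 6.92 and 8.06 CPM in D1Dox_d2 against 0.706, 2.37 and 1.67 CPM in NoDox_d2. At day 4 it had 45.9, 40.2 and 43.1 CPM in D3Dox_d4 against 6.67, 4.55 and 4.84 CPM in NoDox_d4. The 4 endothelial markers summed to 25.3 to 30.2 CPM in D1Dox_d2 against 2.34 to 6.89 CPM in NoDox_d2, with 2 higher and 0 lower. At day 4 their sums overlapped, at 10.7 to 13.98 CPM in D3Dox_d4 against 6.34 to 37.19 CPM in NoDox_d4, with 1 higher and 1 lower. Tie1, 1 of the 4, was not tested. Kdr alone had 20.46 to 24.61 CPM in D1Dox_d2 against 1.56 to 3.32 CPM in NoDox_d2. Cdh5 had 0.492 to 0.693 CPM in D1Dox_d2 against 2.507, 0.079 and 0.186 CPM in NoDox_d2. The part of these cells or states in the inhibitor, ligand and receptor results was not tested.

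Among the 19 ligands, Wnt2 was higher and Wnt8a and Wnt8b were lower with doxycycline at both days. At day 2, 4 were higher (Wnt2, Wnt2b, Wnt4 and Wnt9a) and 5 lower (Wnt3a, Wnt5b, Wnt7a, Wnt8a and Wnt8b). At day 4, 2 were higher (Wnt2 and Wnt10a) and 3 lower (Wnt4, Wnt8a and Wnt8b). The calls are 47.4% of the 19 at day 2, beside 28.4% of all genes. At day 4 they are 26.3%, close to the 23.5% of all genes.

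Wnt2, a ligand of lung, heart and placental development, had 22.0, 23.5 and 22.1 CPM in D1Dox_d2 against 0.530, 0 and 0.0744 CPM in NoDox_d2. Wnt2 at day 4 had 6.51, 7.45 and 7.76 CPM in D3Dox_d4 against 0.316, 0.691 and 0.231 CPM in NoDox_d4. The NoDox_d2 values stand for 15, 0 and 2 counts, so the size of the day 2 fold change rests on few counts. For Wnt2 the log2 fold change was 6.72 ± 0.66 at day 2 and 4.13 ± 0.59 at day 4 (edgeR adjusted p = 3.22e-05 and 0.000541). When NoDox_d2 replicate 1 was left out, the fit gave 9.02 at day 2 against 0 and 2 counts, a value that is no bound. The difference between the days, -2.60, was not called (adjusted p = 0.0751).

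Wnt8a, a ligand of the streak and posterior mesoderm, had 14.9, 16.03 and 12.7 CPM in D1Dox_d2 against 158.7, 111.3 and 136.8 CPM in NoDox_d2. Wnt8a at day 4 had 11.4, 13.6 and 12.9 CPM in D3Dox_d4 against 52.1, 57.9 and 57.4 CPM in NoDox_d4. Doxycycline libraries of both days were alike and lay below all NoDox libraries. For Wnt8a the log2 fold change was -3.22 ± 0.15 at day 2 and -2.14 ± 0.14 at day 4 (edgeR adjusted p = 1.36e-07 and 2.24e-06), and the effects differed by 1.08 ± 0.20 (adjusted p = 0.00581). Wnt8b, a ligand of the embryonic forebrain, had means of 0.131 CPM in D1Dox_d2 against 2.86 CPM in NoDox_d2 and 0.478 CPM in D3Dox_d4 against 4.99 CPM in NoDox_d4, with no overlap. Its log2 fold change was -4.37 ± 0.50 at day 2 and -3.38 ± 0.43 at day 4 (edgeR adjusted p = 0.000101 and 0.000225), and -5.03 at day 2 without D1Dox_d2 replicate 1.

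Wnt4, needed for kidney and ovary development, changed direction between the days. It had 11.2, 14.6 and 12.2 CPM in D1Dox_d2 against 6.81, 6.44 and 7.33 CPM in NoDox_d2, and 4.84, 2.95 and 2.67 CPM in D3Dox_d4 against 10.9, 10.1 and 11.7 CPM in NoDox_d4. The groups were separate at each day. For Wnt4 the log2 fold change was 0.88 ± 0.22 at day 2 (edgeR adjusted p = 0.0115), -1.64 ± 0.22 at day 4 (adjusted p = 0.000373), and the difference was -2.53 ± 0.31 (adjusted p = 0.000865). Without D1Dox_d2 replicate 2 the day 2 value was 0.76 (adjusted p = 0.0552).

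The other ligands called at day 2 were at lower levels or spread more between libraries. Wnt2b, a close relative of Wnt2, had means of 2.56 CPM in D1Dox_d2 and 0.827 CPM in NoDox_d2 (log2 fold change 1.61 ± 0.39, edgeR adjusted p = 0.0105; 2.28 without NoDox_d2 replicate 1), and Wnt7a, a limb patterning ligand, had 1.63 CPM in D1Dox_d2 and 6.40 CPM in NoDox_d2 (-1.97 ± 0.39, adjusted p = 0.00377). Wnt9a, a ligand of joint formation, had 8.13 CPM in D1Dox_d2 and 4.13 CPM in NoDox_d2 (0.97 ± 0.24, adjusted p = 0.0125), but 0.83 without D1Dox_d2 replicate 3 (adjusted p = 0.0604). Wnt3a, needed for trunk mesoderm, had 3.56, 2.77 and 2.43 CPM in D1Dox_d2 against 29.9, 5.61 and 4.31 CPM in NoDox_d2 (-2.18 ± 0.63, adjusted p = 0.024). It was not called without any one D1Dox_d2 library (-2.07 to -2.37, adjusted p 0.0525 to 0.0867) or without NoDox_d2 replicate 1 (-0.77, adjusted p = 0.0768). Wnt5b, a ligand acting largely without β-catenin, had 5.61, 5.25 and 5.76 CPM in D1Dox_d2 against 73.3, 6.32 and 7.36 CPM in NoDox_d2 (-2.39 ± 0.80, adjusted p = 0.0434). It was not called without NoDox_d2 replicate 1 (-0.32, adjusted p = 0.526) or without any one D1Dox_d2 library (-2.36 to -2.42, adjusted p 0.105 to 0.117).

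Wnt10a, a ligand of teeth and skin appendages, held 94 counts over the 3 D3Dox_d4 libraries against 3 over the NoDox_d4 libraries, a ratio of 29.8 with a 95% counting interval of 9.89 to 147. All 3 of those NoDox_d4 counts were in replicate 1. The log2 fold change was 4.72 (edgeR adjusted p = 0.0289), and the adjusted p was 0.0577 to 0.0902 without D3Dox_d4 replicate 1 or 2 or NoDox_d4 replicate 2 or 3. When NoDox_d4 replicate 1 was left out, the fit gave 7.93 against 0 counts in the other NoDox_d4 libraries, a value that is no bound. Wnt3, which is needed to form the mouse primitive streak, was not called at either day: it had 33.7, 39.1 and 36.4 CPM in D1Dox_d2 against 74.0, 16.1 and 23.0 CPM in NoDox_d2. Without the NoDox libraries numbered 1 its day 2 log2 fold change was 0.89 (edgeR adjusted p = 7.23e-05). Wnt1, a midbrain ligand, was not called either, but without those libraries it was lower at day 2 (-3.29, adjusted p = 4.22e-08) and at day 4 (-2.06, adjusted p = 3.59e-06).

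Per kilobase, Wnt3 had the highest mean of the ligands in D1Dox_d2 at 11.8 ± 0.89 RPKM, next to Wnt2 at 9.99 ± 0.36 RPKM and Wnt8a at 8.33 ± 0.96 RPKM. Wnt8a had the highest mean in D3Dox_d4 at 7.23 ± 0.66 RPKM, within the spread of Wnt3a at 5.52 ± 1.06 RPKM, which was the higher of these in D3Dox_d4 replicate 1. Wnt8a was also highest in NoDox_d2 at 77.7 ± 13.6 RPKM and in NoDox_d4 at 31.9 ± 1.83 RPKM. In NoDox_d2 it lay above Wnt3, the next ligand at 12.3 ± 10.3 RPKM, by more than their spread.

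The 14 receptors gave smaller changes, and 2 of them switched sides. At day 2, 4 were higher (Fzd1, Fzd4, Fzd5 and Fzd8) and 2 lower (Fzd9 and Fzd10). At day 4, 3 were higher (Fzd5, Fzd6 and Lrp5) and 4 lower (Fzd1, Fzd7, Fzd8 and Fzd9). The calls are 42.9% of the 14 at day 2 and 50% at day 4, beside 28.4% and 23.5% of all genes.

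Fzd8, a Frizzled receptor, had 31.2, 26.5 and 31.6 CPM in D1Dox_d2 against 6.46, 9.88 and 8.92 CPM in NoDox_d2. Fzd8 at day 4 had 10.8, 9.70 and 9.99 CPM in D3Dox_d4 against 20.1, 16.8 and 16.8 CPM in NoDox_d4. Each pair of groups was separate, in opposite directions. For Fzd8 the log2 fold change was 1.82 ± 0.17 at day 2 and -0.82 ± 0.16 at day 4 (edgeR adjusted p = 2.01e-05 and 0.00411), a difference of -2.64 ± 0.23 (adjusted p = 0.000117).

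Fzd1 followed the same order, with 42.2, 44.5 and 50.0 CPM in D1Dox_d2 against 27.3, 23.8 and 20.9 CPM in NoDox_d2, and 27.0, 23.2 and 26.5 CPM in D3Dox_d4 against 44.5, 40.1 and 37.0 CPM in NoDox_d4. No library overlapped. Its log2 fold change was 0.92 ± 0.13 at day 2 and -0.66 ± 0.13 at day 4 (edgeR adjusted p = 0.000375 and 0.00312), a difference of -1.59 ± 0.18 (adjusted p = 0.000558).

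Fzd5, a receptor needed in the yolk sac and eye, had 24.5, 25.9 and 26.2 CPM in D1Dox_d2 against 11.4, 13.04 and 10.49 CPM in NoDox_d2, and 7.16, 11.1 and 11.9 CPM in D3Dox_d4 against 4.61, 5.86 and 6.07 CPM in NoDox_d4. It was higher at both days without overlap, by 1.13 ± 0.19 and 0.87 ± 0.20 (edgeR adjusted p = 0.00148 and 0.00818), and 17.83% of its exon bases lie opposite Gm38058. Fzd10 had 86.5, 85.7 and 80.6 CPM in D1Dox_d2 against 272.8, 170.1 and 169.1 CPM in NoDox_d2 (-1.28 ± 0.18, adjusted p = 0.000437), while at day 4 its means were 178 CPM in D3Dox_d4 and 186 CPM in NoDox_d4. Those effects differed by 1.21 ± 0.25 (adjusted p = 0.0117).

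Fzd4, which also serves the ligand Norrin, had means of 20.3 CPM in D1Dox_d2 and 8.001 CPM in NoDox_d2 (1.34 ± 0.25, edgeR adjusted p = 0.00227), and its effects differed between the days by -1.82 ± 0.35 (adjusted p = 0.00738). Fzd9 was lower at both days, with 1.40 CPM in D1Dox_d2 and 5.70 CPM in NoDox_d2 (-2.02 ± 0.37, adjusted p = 0.00244), and 5.22 CPM in D3Dox_d4 and 13.6 CPM in NoDox_d4 (-1.38 ± 0.35, adjusted p = 0.0144). The day 4 call of Fzd9 was lost without D3Dox_d4 replicate 2 or 3 or NoDox_d4 replicate 3 (-1.24 to -1.31, adjusted p 0.0507 to 0.0646). Fzd7, abundant in pluripotent cells, had 129 CPM in D3Dox_d4 and 183 CPM in NoDox_d4 (-0.51 ± 0.12, adjusted p = 0.0107).

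Fzd6, a planar polarity receptor, had means of 26.1 CPM in D3Dox_d4 and 19.9 CPM in NoDox_d4 (0.39 ± 0.12, edgeR adjusted p = 0.0369), and Lrp5, a co-receptor, 82.7 CPM in D3Dox_d4 and 54.4 CPM in NoDox_d4 (0.60 ± 0.18, adjusted p = 0.0321). The Fzd6 call was lost without any one D3Dox_d4 library or NoDox_d4 replicate 2 or 3 (0.33 to 0.42, adjusted p 0.0748 to 0.124) and with upper-quartile scaling (0.34, adjusted p = 0.0657). That of Lrp5 was lost without D3Dox_d4 replicate 2 or 3 or NoDox_d4 replicate 2 or 3 (0.47 to 0.56, adjusted p 0.0935 to 0.115). Fzd2, Fzd3, Lrp6, Ror1 and Ror2 were not called in either doxycycline comparison. Fzd10 had the highest mean level per kilobase of the receptors in all 4 groups, from 25.9 RPKM in D1Dox_d2 to 62.8 RPKM in NoDox_d2, although in D1Dox_d2 Fzd7 at 25.1 ± 1.18 RPKM lay within its spread.

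R-spondins strengthen Wnt signals by binding LGR receptors and keeping the ubiquitin ligases RNF43 and ZNRF3 from removing Frizzled. Of these 6 genes 3 were higher at day 2 (Rspo2, Lgr4 and Lgr5) and 2 lower (Rspo3 and Rspo4). At day 4, Rspo1 and Lgr5 were higher and Rspo3 lower. The calls are 83.3% of the 6 at day 2 and 50% at day 4, beside 28.4% and 23.5% of all genes. Rspo2 stayed under 1 CPM in every group mean, at 0.930 CPM in D1Dox_d2 and 0.1498 CPM in NoDox_d2.

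Lgr5, an R-spondin receptor and itself a Wnt target, had 10.2, 9.52 and 10.9 CPM in D1Dox_d2 against 6.71, 3.20 and 3.24 CPM in NoDox_d2. Lgr5 at day 4 had 10.3, 8.92 and 10.8 CPM in D3Dox_d4 against 1.85, 3.13 and 2.58 CPM in NoDox_d4. The doxycycline libraries of both days were alike and above all NoDox libraries. For Lgr5 the log2 fold change was 1.22 ± 0.29 at day 2 and 1.99 ± 0.30 at day 4 (edgeR adjusted p = 0.00954 and 0.000708). Lgr4, its more widely expressed relative, had 174.9, 173.7 and 182.8 CPM in D1Dox_d2 against 81.6, 121.8 and 120.3 CPM in NoDox_d2 (0.72 ± 0.15, edgeR adjusted p = 0.00414). At 18.3 to 30.1 RPKM it had the highest mean level per kilobase of the 6 genes in each group, but Rspo3 lay within its spread in NoDox_d2 (14.9 ± 12.3 RPKM) and above it in NoDox replicate 1 of both days.

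Rspo3, an R-spondin of the streak and blood vessels, had 19.1, 16.6 and 18.1 CPM in D1Dox_d2 against 90.0, 22.9 and 25.6 CPM in NoDox_d2, and 9.54, 11.6 and 10.2 CPM in D3Dox_d4 against 57.1, 33.0 and 22.6 CPM in NoDox_d4. All doxycycline libraries lay below all NoDox libraries of the same day. For Rspo3 the log2 fold change was -1.36 ± 0.47 at day 2 and -1.84 ± 0.48 at day 4 (edgeR adjusted p = 0.0491 and 0.0168). The day 2 call was lost without NoDox_d2 replicate 1 (-0.45, adjusted p = 0.245) or any one D1Dox_d2 library (-1.32 to -1.43, adjusted p 0.101 to 0.130), and with another size factor method (RLE, -1.36, adjusted p = 0.0528). The day 4 call was lost without D3Dox_d4 replicate 1 or 3 or NoDox_d4 replicate 1 (-1.41 to -1.82, adjusted p 0.0524 to 0.0615). Of its exon bases 13.07% lie opposite Gm48159.

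Rspo1 had 10.1, 8.11 and 7.52 CPM in D3Dox_d4 against 5.52, 3.50 and 3.996 CPM in NoDox_d4 without overlap, a log2 fold change of 0.98 ± 0.23 (edgeR adjusted p = 0.00954). Its effects differed between the days by 1.42 ± 0.33 (adjusted p = 0.0169), or 1.33 without D1Dox_d2 replicate 3 (adjusted p = 0.0513). Rspo4 had 0.833, 0.773 and 1.30 CPM in D1Dox_d2 against 0.742, 6.84 and 6.47 CPM in NoDox_d2, so that NoDox_d2 replicate 1 overlapped with the doxycycline libraries. Its day 2 log2 fold change was -2.27 ± 0.66 (edgeR adjusted p = 0.0245) or -2.79 without the NoDox libraries numbered 1, and was not called without any one D1Dox_d2 library or NoDox_d2 replicate 2 or 3 (-1.90 to -2.54, adjusted p 0.0543 to 0.0844).

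**Figure D3:**
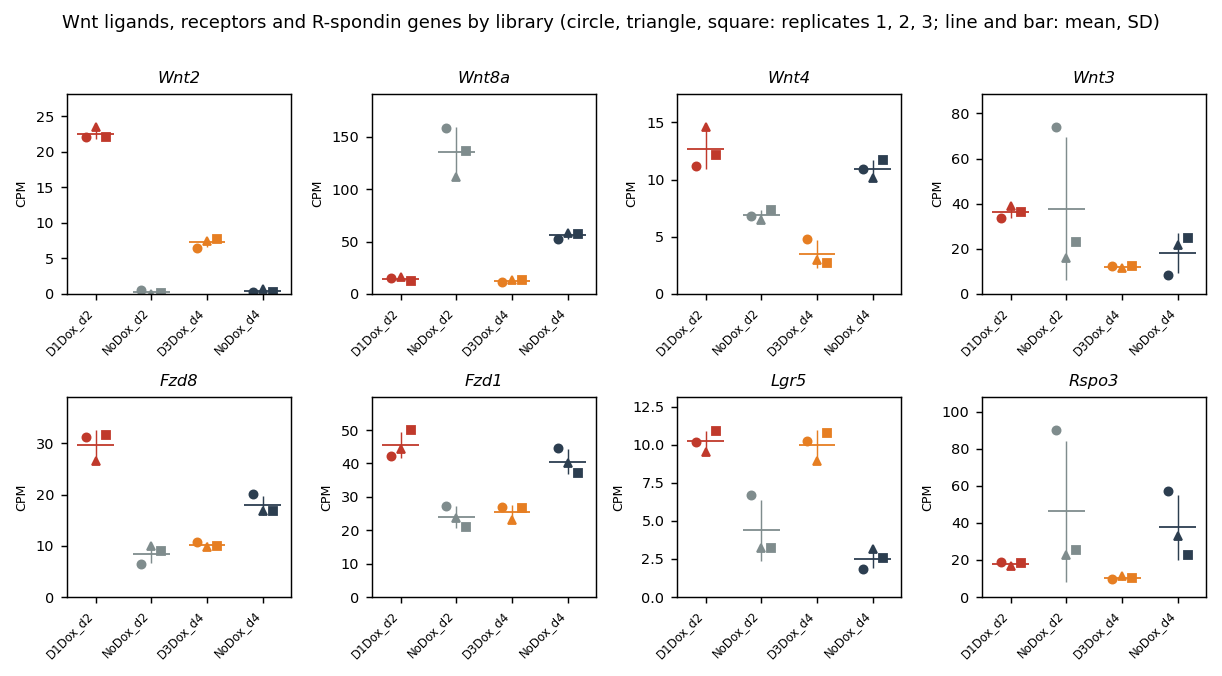
CPM of 4 ligands, 2 receptors, Lgr5 and Rspo3 in each library, drawn as circles, triangles and squares for replicates 1, 2 and 3 with the mean ± SD. Wnt2 and Lgr5 are higher and Wnt8a is lower with doxycycline at both days, and Fzd8, Fzd1 and Wnt4 lie above NoDox_d2 in D1Dox_d2 and below NoDox_d4 in D3Dox_d4.

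The 7 feedback and target genes, whose transcripts are commonly read as signs of β-catenin activity, gave 1 call at each day. That is 14.3% of the 7, beside 28.4% of all genes at day 2 and 23.5% at day 4. Tcf7, a TCF factor, was lower, with 60, 66.6 and 60.7 CPM in D1Dox_d2 against 132.5, 82.2 and 83.9 CPM in NoDox_d2. Tcf7 at day 4 had 46.3, 53.0 and 52.4 CPM in D3Dox_d4 against 120.2, 68.5 and 67.9 CPM in NoDox_d4. The groups were separate at both days, with NoDox replicate 1 the highest library each time. For Tcf7 the log2 fold change was -0.67 ± 0.23 at day 2 and -0.76 ± 0.23 at day 4 (edgeR adjusted p = 0.0461 and 0.033). The day 2 call was lost without any one D1Dox_d2 library or NoDox_d2 replicate 1 or 3 (-0.42 to -0.79, adjusted p 0.0529 to 0.127) and with RLE size factors (-0.66, adjusted p = 0.0552). The day 4 call was lost without any one D3Dox_d4 library or NoDox_d4 replicate 1 (-0.43 to -0.79, adjusted p 0.0784 to 0.107). Without both NoDox libraries numbered 1 it was called at -0.42 and -0.43.

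Axin2, a scaffold of the β-catenin destruction complex and a common readout of the pathway, had 72.2, 78.2 and 73.0 CPM in D1Dox_d2 against 142, 84.6 and 82.9 CPM in NoDox_d2, and 62.2, 70.1 and 72.2 CPM in D3Dox_d4 against 102, 89.1 and 94.7 CPM in NoDox_d4. The doxycycline libraries lay below all NoDox libraries of the same day. The log2 fold changes, -0.47 ± 0.18 and -0.48 ± 0.18, were not called (edgeR adjusted p = 0.0661 and 0.0689). At day 2 they passed the threshold without NoDox_d2 replicate 2 (-0.60, adjusted p = 0.0427) or replicate 3 (-0.61, adjusted p = 0.0384). Without both NoDox libraries numbered 1 the value was -0.17 at day 2 (adjusted p = 0.0992) and -0.43 at day 4 (adjusted p = 0.00105).

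Sp5, a transcription factor switched on by β-catenin, had a day 2 direction that 1 library decided. It had 20.3, 18.8 and 18.8 CPM in D1Dox_d2 against 113.8, 6.48 and 10.45 CPM in NoDox_d2, and 5.39, 4.20 and 4.06 CPM in D3Dox_d4 against 21.4, 10.7 and 5.96 CPM in NoDox_d4. At day 2, NoDox_d2 replicate 1 lay above and the other NoDox_d2 libraries below those of D1Dox_d2. The day 2 log2 fold change was -1.18 and not called (edgeR adjusted p = 0.311), but 1.17 and called without NoDox_d2 replicate 1 (adjusted p = 0.0445) and 1.18 without both NoDox libraries numbered 1 (adjusted p = 0.000534). At day 4 it was -1.48 and not called, and -0.86 without both (adjusted p = 0.0101).

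Lef1, another TCF/LEF factor, had 34.4, 30.0 and 32.4 CPM in D1Dox_d2 against 95.8, 19.8 and 25.4 CPM in NoDox_d2, and its day 2 value of -0.54 (edgeR adjusted p = 0.519) was 0.51 without both NoDox libraries numbered 1 (adjusted p = 0.00264). Of its exon bases 13.75% lie opposite Gm43352. Nkd1, Rnf43 and Znrf3, which encode feedback inhibitors inside the cell or at its surface, were not called at either day. Tcf7 had the highest mean level per kilobase of the 7 genes in each group (16.8 to 33.0 RPKM). Nkd1 at 16.4 ± 0.48 RPKM lay within its spread in D3Dox_d4, as did Sp5 at 20.7 ± 29.0 RPKM in NoDox_d2, where Sp5 was the higher in replicate 1. Of 7 primitive streak markers, which Wnt signalling helps to induce in the embryo, 4 were lower at day 2 (T, Fgf8, Mesp1 and Tbx6). Only Mixl1 itself was higher, and 13.4% of all genes were lower and 14.9% higher. Eomes was not called, with 57.4, 64.6 and 57.2 CPM in D1Dox_d2 against 88.7, 13.2 and 23.9 CPM in NoDox_d2. Only NoDox_d2 replicate 1 lay above its D1Dox_d2 libraries. The 6 markers without Mixl1 summed to 143.6 to 151.3 CPM in D1Dox_d2 against 1525.6, 174.1 and 242.4 CPM in NoDox_d2, the highest being replicate 1. At day 4 these 6 summed to 36.0 to 54.6 CPM in D3Dox_d4 against 103.1 to 168.3 CPM in NoDox_d4. Of the 7 markers, 1 was then called higher and 1 lower. The part of the streak markers in the values of the target genes was not tested.

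**Figure D4:**
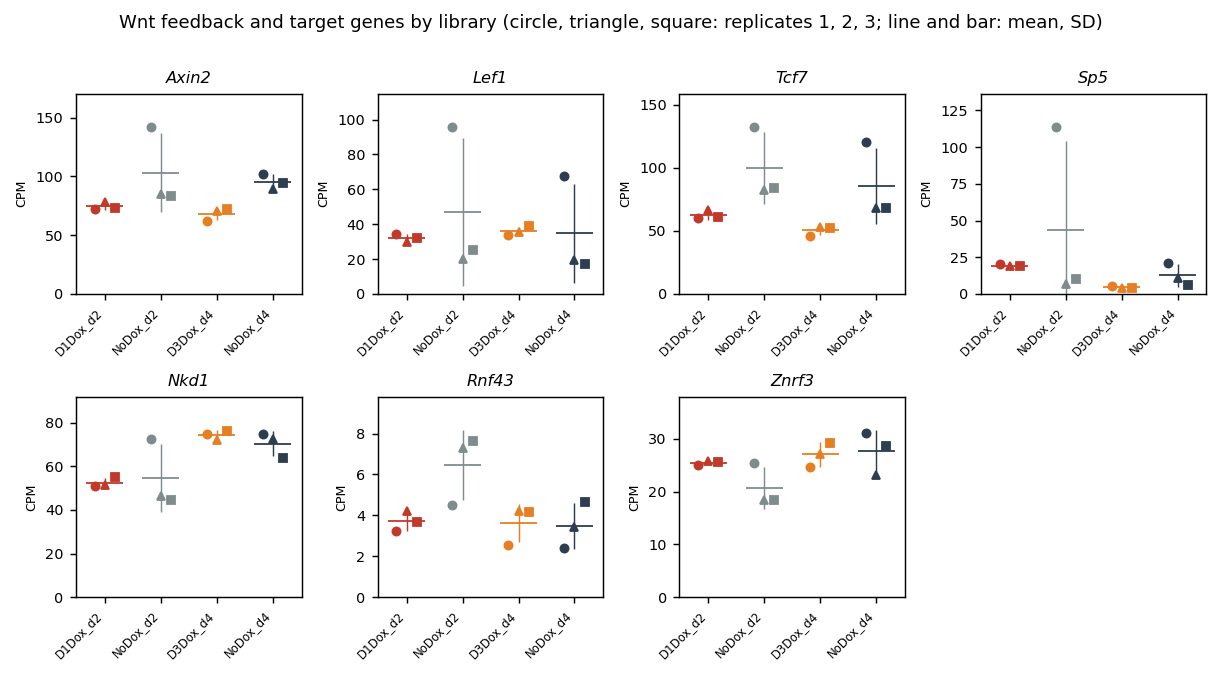
CPM of the 7 feedback and target genes in each library, as circles, triangles and squares for replicates 1, 2 and 3 with the mean ± SD (bars end at 0). NoDox_d2 replicate 1 is the highest NoDox_d2 library for Axin2, Lef1, Tcf7, Sp5, Nkd1 and Znrf3, and reaches 113.8 CPM for Sp5 against 6.48 and 10.45 CPM in the other NoDox_d2 libraries.

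The effects of doxycycline at day 4 and day 2 were compared directly, as day 4 minus day 2. D1 and D3 differ along with the day, so the difference cannot be put down to day alone. The difference was called for 16 of the 56 genes, 6 positive and 10 negative, which is 28.6% of the list beside 12.9% of all genes (6.66% positive and 6.24% negative). Beside the inhibitors, ligands, receptors and R-spondins given above, they were Wnt7a (2.27 ± 0.54, edgeR adjusted p = 0.0191), Wnt2b (-2.08 ± 0.56, adjusted p = 0.0328; -2.75 without NoDox_d2 replicate 1), Rspo4 (3.44 ± 0.90, adjusted p = 0.0288) and Rspo2 (-2.18 ± 0.63, adjusted p = 0.0421). Of the 16 calls 9 held under every alternative tried, those of Dkk1, Dkk3, Fzd1, Fzd10, Fzd4, Fzd8, Wif1, Wnt4 and Wnt8a. Wnt7a was not called without D1Dox_d2 replicate 2 or 3 or NoDox_d2 replicate 3 (2.06 to 2.17, adjusted p 0.0504 to 0.0550). Rspo4 was not called without any D1Dox_d2 library, D3Dox_d4 replicate 2 or 3, NoDox_d2 replicate 2 or 3 or NoDox_d4 replicate 3 (3.08 to 3.72, adjusted p 0.0508 to 0.0756). Wnt2b was lost without any of 10 libraries, all but NoDox_d2 replicate 1 and NoDox_d4 replicate 2 (-1.80 to -2.14, adjusted p 0.0572 to 0.0826), and Rspo2 without any of 10 libraries, all but NoDox_d2 replicate 3 and NoDox_d4 replicate 3 (-1.82 to -2.31, adjusted p 0.0514 to 0.105). Rspo2 was at -2.82 without NoDox_d2 replicate 3, and at -1.47 and not called without both NoDox libraries numbered 1 (adjusted p = 0.0974).

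Between the days without doxycycline, 7 of the 56 genes were higher in NoDox_d4 than in NoDox_d2 and 3 lower, 17.9% of the list beside 10.6% of all genes (5.09% higher and 5.55% lower). The libraries of the 2 days did not overlap for 14 of the 56, beside 23.2% of all genes. The libraries are those that served as controls above, so these values are not independent of the doxycycline effects. The test did not pair the libraries by replicate number. The receptors made up most of the calls. Wnt8a was lower, at 52.1, 57.9 and 57.4 CPM in NoDox_d4 against 158.7, 111.3 and 136.8 CPM in NoDox_d2 (-1.28 ± 0.14, edgeR adjusted p = 0.00032), and it was the 1 member called under every alternative.

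Fzd8 was higher in NoDox_d4 than in NoDox_d2 (1.09 ± 0.17, edgeR adjusted p = 0.00212), as were Fzd1 (0.75 ± 0.13, adjusted p = 0.00363) and Fzd7 (0.62 ± 0.12, adjusted p = 0.00814). Fzd5 was lower (-1.08 ± 0.20, adjusted p = 0.00539) and Dkk1 higher (0.86 ± 0.18, adjusted p = 0.00967). Wnt6, an epithelial ligand, had 1.14, 1.38 and 0.653 CPM in NoDox_d4 against 28.9, 2.45 and 4.39 CPM in NoDox_d2 (-3.49 ± 0.79, adjusted p = 0.0164), or -1.76 without the NoDox libraries numbered 1 (adjusted p = 0.00498) and -3.23 without NoDox_d4 replicate 3 (adjusted p = 0.0734). Rspo2 was also called higher, from counts under 1 CPM, and was not called without NoDox_d2 replicate 2 (1.98, adjusted p = 0.056; 2.76 without NoDox_d2 replicate 3) or without both libraries numbered 1 (1.41, adjusted p = 0.0814).

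Fzd9 had means of 13.6 CPM in NoDox_d4 and 5.70 CPM in NoDox_d2 (1.25 ± 0.35, edgeR adjusted p = 0.0413), and Fzd3 243 CPM in NoDox_d4 and 114 CPM in NoDox_d2 (1.10 ± 0.32, adjusted p = 0.0489). With the replicate number as a block, Fzd9 was at 1.28 (adjusted p = 0.0541) and no longer called. Without NoDox_d2 replicate 1 or 3, or NoDox_d4 replicate 2 or 3, Fzd9 was not called (0.95 to 1.29, adjusted p 0.0679 to 0.136), and neither was Fzd3 (0.80 to 1.15, adjusted p 0.0869 to 0.187). Fzd3 also missed the threshold with upper-quartile scaling (1.08, adjusted p = 0.052).

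**Figure D5:**
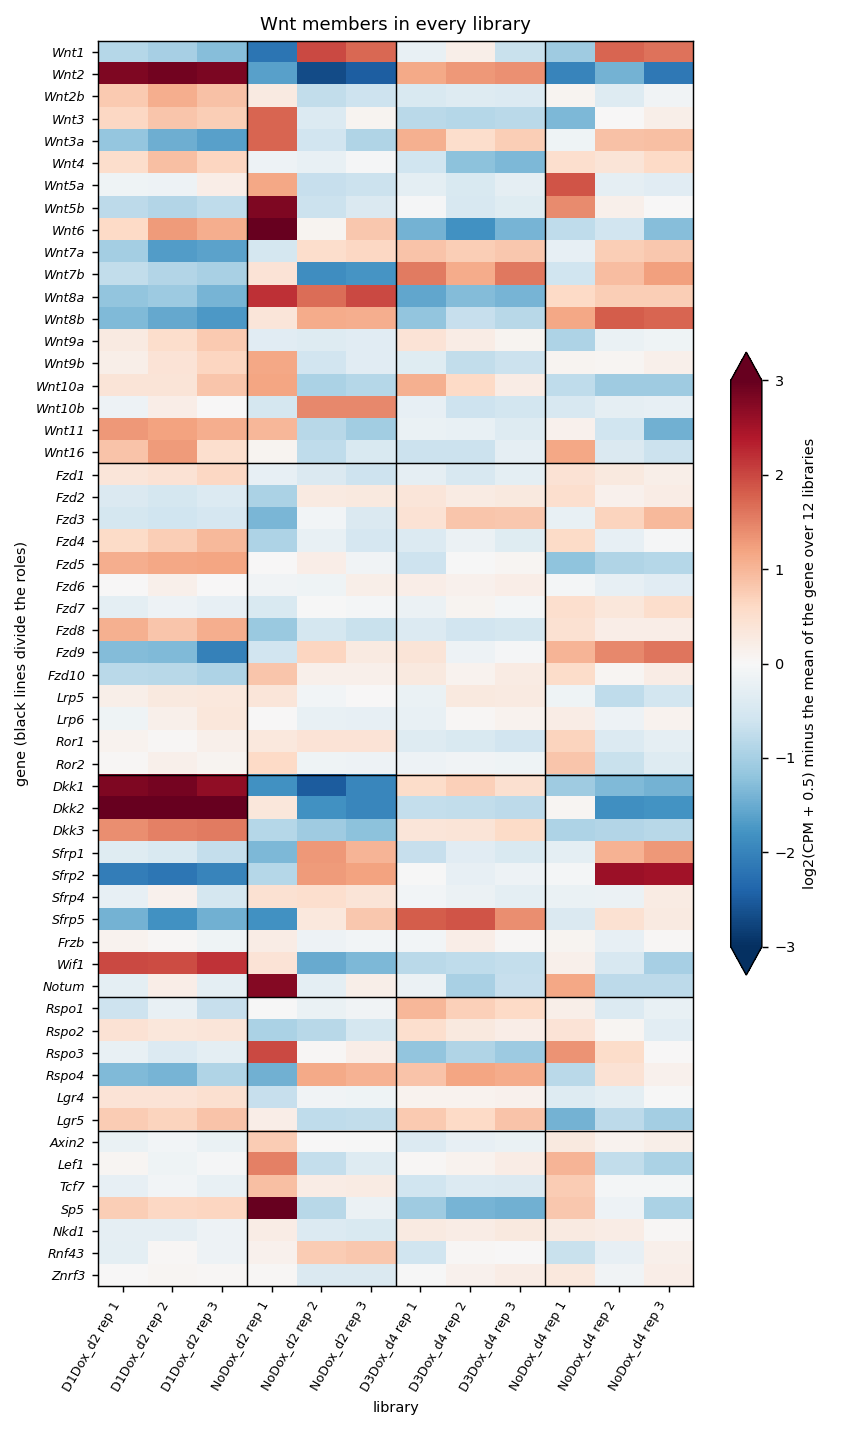
Heat map of the 56 genes (rows, by role) in the 12 libraries (columns, by group). Colour gives log2(CPM + 0.5) minus the mean of the gene over the 12 libraries, with the scale ending at 3 log2 units on either side. The NoDox_d2 replicate 1 column differs from its neighbours, for example in Sp5 at 113.8 CPM, while the 3 columns of each doxycycline group are alike.

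Beyond these 56 genes, 46 further pathway genes were listed, of which 45 were tested. The 45 tested gave 5 higher and 12 lower genes at day 2, 10 higher and 7 lower at day 4, and 4 higher and 1 lower between the NoDox days. Those are 37.8%, 37.8% and 11.1% of the 45, beside 28.4%, 23.5% and 10.6% of all genes, so the NoDox share was close to that of all genes. Their median log2 fold change was -0.0624 at day 2 and 0.0665 at day 4. Cer1, an anterior endoderm gene for a secreted antagonist of Nodal and BMP, had 83.9, 88.2 and 77.5 CPM in D1Dox_d2 against 1.94, 1.19 and 0.781 CPM in NoDox_d2 (5.99 ± 0.58, edgeR adjusted p = 2.80e-05). At day 4 it had 2.68, 4.98 and 4.58 CPM in D3Dox_d4 against 1.26, 7.03 and 6.80 CPM in NoDox_d4, groups that overlapped. The effects differed by -6.29 ± 0.73 (adjusted p = 0.000646), or by -7.16 without both NoDox libraries numbered 1.

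Ctnnb1, which encodes β-catenin, was lower at day 2, with 624, 612 and 610 CPM in D1Dox_d2 against 799, 898 and 873 CPM in NoDox_d2 (-0.48 ± 0.08, edgeR adjusted p = 0.00112). Dvl2, which relays the signal from Frizzled, was also lower (-0.48 ± 0.08, adjusted p = 0.00173), and Tcf7l2, a TCF factor, was higher (0.67 ± 0.13, adjusted p = 0.00275). Of their exon bases, 14.62% of Ctnnb1 and 18.28% of Dvl2 lie opposite other genes. At day 4 Kremen1, a Dickkopf receptor, had 56.3, 66.6 and 67.5 CPM in D3Dox_d4 against 29.5, 30.4 and 35.2 CPM in NoDox_d4 (1.00 ± 0.11, edgeR adjusted p = 6.85e-05), and Celsr3, a planar polarity cadherin, was higher by 1.94 ± 0.28 (adjusted p = 0.000524).

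Nkd2, a Dishevelled-binding inhibitor, was lower at day 4 (-1.14 ± 0.29, edgeR adjusted p = 0.015), or -1.06 and not called without D3Dox_d4 replicate 1 (adjusted p = 0.058). Sost, a secreted LRP inhibitor of bone, was lower (-3.60 ± 0.97, adjusted p = 0.02), but was not called without D3Dox_d4 replicate 1 or 3 or NoDox_d4 replicate 1 (-2.63 to -3.45, adjusted p 0.0707 to 0.0764). Csnk1e, a kinase of the pathway, and Porcn, the enzyme that adds the lipid to Wnt, changed in opposite directions at the days. Csnk1e was at -0.31 ± 0.09 at day 2 and 0.43 ± 0.09 at day 4 (edgeR adjusted p = 0.021 and 0.00415), and at day 2 it was not called when D1Dox_d2 replicate 2 or NoDox_d2 replicate 2 or 3 was left out (-0.27 to -0.31, adjusted p 0.0667 to 0.0883). Porcn had 11.4, 11.3 and 10.96 CPM in D1Dox_d2 against 19.6, 14.6 and 16.1 CPM in NoDox_d2 (-0.58 ± 0.14, adjusted p = 0.00877). Its day 4 value, 0.46 ± 0.14 (adjusted p = 0.0278), was lost without any one D3Dox_d4 library or NoDox_d4 replicate 2 or 3 (0.42 to 0.49, adjusted p 0.0684 to 0.0868). In the NoDox libraries Pygo1, a β-catenin coactivator, was higher in NoDox_d4 than in NoDox_d2 (1.58 ± 0.19, adjusted p = 0.000647), as was Wls, which carries Wnt to the cell surface (0.61 ± 0.12, adjusted p = 0.00774), and Kremen2, another Dickkopf receptor, was lower (-1.64 ± 0.25, adjusted p = 0.00233).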

How the data were processed

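RNA was measured in 12 libraries, 3 in each of 4 groups. NEBNext Ultra II libraries were sequenced from both ends at 150 bp, and Trim Galore kept reads of at least 50 bp, per the labels' protocols. STAR, featureCounts, DESeq2, GRCm38 and mm10 appear in the submitters' processing notes. The authors deposited unnormalized counts of read pairs for each gene, made with featureCounts 2.0.1 on GENCODE vM25 without a strand option, per the file headers. Coordinates and exon lengths are those of that file. Gene symbols were matched for 55141 of 55487 identifiers.

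The members and lists were chosen with earlier results of these data known. The main test was edgeR's quasi-likelihood F-test (edgeR 4.0.16 with R 4.3.3 and limma 3.58.1), after TMM scaling and filterByExpr, which left 18109 genes. All 12 libraries entered 1 fit with a coefficient per group and 8 residual degrees of freedom, and calls were made at an adjusted p (Benjamini-Hochberg, over all genes tested) under 0.05. SE is |log2 fold change| over the square root of F. CPM uses TMM-scaled library sizes, and RPKM divides it by the deposited exon length. Over total counts without TMM scaling, 3 counts correspond to 0.107 to 0.124 CPM. The script was tested on simulated data.

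Every called member with a group mean of at least 1 CPM is named, with library values for up to 3 per role and comparison, and further pathway genes by the 2 lowest adjusted p in each direction. Library values of Dkk2, Sfrp1, Sfrp5, Axin2, Sp5, Lef1, Wnt3, Wnt3a, Wnt5b and Rspo4 were added after they were seen. Libraries of the same number in a doxycycline group and its NoDox group had deviations from their group means that correlated at -0.153 to 0.055, so numbers do not pair those. Between NoDox_d4 and NoDox_d2 the correlations were 0.583, 0.439 and 0.385. The main test did not pair these libraries, and a replicate block was used only as an alternative. Unlike numbers correlated as well, at 0.509 (NoDox_d2 replicate 2 with NoDox_d4 replicate 3) and 0.424 (3 with 2), so that only replicate 1 is set apart. No 2 replicates were alike within sampling noise. Alternatives were RLE and upper-quartile scaling, no filter, a filter of 1 CPM in 3 libraries, DESeq2 1.42.0, robust moderation, only the libraries compared, a replicate block and leaving out libraries.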

Additional observations from a re-analysis of the deposited data

Results flagged for a closer look

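The genes below had effects of doxycycline that differed between day 4 (D3Dox_d4) and day 2 (D1Dox_d2) by a test of the difference itself. This edgeR test used all 12 libraries, with calls at an adjusted p under 0.05. The D number and the day changed together. Each value is the log2 fold change of D3Dox_d4 over NoDox_d4 minus that of D1Dox_d2 over NoDox_d2. Among the ligands the difference was -2.08 for Wnt2b, -2.53 for Wnt4, 2.27 for Wnt7a and 1.08 for Wnt8a. Among the receptors it was -1.59 for Fzd1, -1.82 for Fzd4, -2.64 for Fzd8 and 1.21 for Fzd10. For the secreted inhibitors it was -3.06 for Dkk1, -3.92 for Dkk2, -1.24 for Dkk3, -3.24 for Wif1 and 4.23 for Sfrp5. For the R-spondins it was 1.42 for Rspo1, -2.18 for Rspo2 and 3.44 for Rspo4. Among the further pathway genes named by rule it was 0.74 for Csnk1e, 1.05 for Porcn, -6.29 for Cer1 and -0.60 for Tcf7l2. The value of Tcf7l2 was lost without any one library other than NoDox_d2 replicate 1 (-0.52 to -0.66, adjusted p 0.0645 to 0.121).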

How the results depend on the processing

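Of the calls among the 56 genes, 19 of 27 held at day 2 under every alternative tried, as did 12 of 19 at day 4, 9 of 16 for the difference of effects and 1 of 10 between NoDox_d4 and NoDox_d2. Leaving out 1 library at a time gave 6 to 13 lower members and 3048 to 7438 genes called at day 2, 6 to 10 lower members and 2756 to 4286 genes at day 4, 3 to 8 positive and 7 to 17 negative members and 1226 to 5037 genes for the difference, and 5 to 11 higher and 2 to 6 lower members and 1064 to 3208 genes between the NoDox days. Without both NoDox libraries numbered 1 there were 27 higher members and 9902 genes at day 2, 16 higher and 16 lower members and 7168 genes at day 4, 14 positive and 18 negative members and 6424 genes for the difference, and 16 higher and 11 lower members and 4534 genes between the NoDox days. With only the libraries compared, 7 members were lower at day 2. Between the NoDox days that fit called 0 higher and 1 lower members and 206 genes by edgeR, with 7 higher at an unadjusted p under 0.05 and 8 called higher by DESeq2, which called 7 lower, while no filter on low counts gave 6 lower. With the replicate block added to that fit, an alternative chosen after seeing the data, 7 were higher and 5 lower. With a replicate block over all libraries the day 2 value of Wnt3 turned to 0.033 (adjusted p = 0.972), Wnt5b at day 2 (-1.67, adjusted p = 0.076), Rspo3 at day 2 (-1.14, adjusted p = 0.0518), Fzd6 at day 4 (0.39, adjusted p = 0.054) and Rspo2 in the difference (-2.15, adjusted p = 0.0632) were not called, and the pairing check passed for the NoDox comparison alone, with replicates 2 and 3 not told apart. Direction also turned without NoDox_d2 replicate 1, and without both NoDox libraries numbered 1, for Wnt3 (0.88 and 0.89), Lef1 (0.50 and 0.51) and Sp5 (1.17 and 1.18) at day 2; the cause was not tested. Over the libraries left out one at a time these values began at -0.42 for Wnt3, -0.92 for Lef1 and -1.69 for Sp5. The median over all genes moved by over 0.1 for the difference, to -0.114 with no filter and -0.20 with DESeq2, against 0.00256, and at day 2 to 0.076 with DESeq2, against -0.03. The difference of effects uses all 12 libraries, so no fit of only the libraries compared could be made for it. Genes under 1 CPM, such as Rspo2 and Wnt8b in D1Dox_d2, rest on few counts.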
